A study of Arabidopsis thaliana with 12 samples.

Results

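The genes described here are 31 members of the SAUR (SMALL AUXIN UP RNA) family of *Arabidopsis thaliana*, taken by gene ID from the 37336 genes of the expression table, for which all 12 libraries have a value. They comprise the chromosome 5 cluster of SAUR19 to SAUR24 (6 genes), the chromosome 1 cluster of SAUR61 to SAUR68 (8 genes), the chromosome 3 cluster of SAUR26 to SAUR29 (4 genes), the chromosome 4 clusters of SAUR1 to SAUR5 (5 genes) and SAUR14 to SAUR16 (3 genes), and SAUR6 to SAUR10 (5 genes), which lie apart on chromosomes 2 and 4, except that SAUR6 and SAUR7 are neighbours. The IDs follow family and position, and they were listed with earlier results of these data known. Members of a cluster are tandem copies that share sequence, so they are not independent replicates of a condition.

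SAUR genes encode short proteins of plants, and many of their transcripts accumulate within minutes of auxin treatment and decay quickly. In *Arabidopsis*, SAUR19 and several of its relatives bind and inhibit type 2C protein phosphatases of clade D. These phosphatases otherwise remove a phosphate from the proton pumps of the plasma membrane, so a SAUR protein keeps the pump active, the cell wall is acidified and the cell can expand. SAUR19 to SAUR24 and SAUR61 to SAUR68 are best known for cell expansion in hypocotyls and other growing organs.

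RNA came from mature leaves of 4-week-old plants in 4 groups of 3 biological replicates: *rtnlb16-1* under LD, Col-0 under LD, *rtnlb16-1* under CLL and Col-0 under CLL. LD is a long day of 16 h light and 8 h dark at about 80 µmol per square metre and second, and CLL is continuous low light, labelled as about 50 µmol. Col-0 is the wild type. *rtnlb16-1* is a single T-DNA line (Salk_122275) in which a chromosome 3 insertion removes the start of one isoform of RTNLB16, a reticulon-like gene of the endoplasmic reticulum, and brings enhancer sequence of the CaMV35S promoter next to it, while another insertion, on chromosome 4, was segregated away. Each replicate pooled leaves of several plants, so differences between single plants are not seen.

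The values are normalized counts, which are gene counts divided by 1 size factor per library, and the 12 libraries hold 25954730 to 44747661 assigned reads. RTNLB16 (AT3G10915), the targeted gene, had 12665, 7577 and 8231 normalized counts in *rtnlb16-1* LD libraries, against 769, 876 and 1016 in Col-0 LD libraries. Under CLL it had 2207, 2252 and 1543 in *rtnlb16-1*, against 954, 709 and 640 in Col-0. Libraries are named by the numbers in their labels, 50 to 52 for *rtnlb16-1* LD, 47 to 49 for Col-0 LD, 68 to 70 for *rtnlb16-1* CLL and 65 to 67 for Col-0 CLL. Each group is a separate run of these numbers, so handling that went with the numbers cannot be told apart from genotype or light regime. Libraries 68 and 69 were unusually alike. Among the more abundant genes, with genes of low counts left out, the log2 ratio between them had an SD of 0.11. By the same measure the 11 remaining pairs of same-group libraries had SDs of 0.346 to 0.757. Libraries 68 and 69 still differed by more than sampling noise (chi-square per degree of freedom 1.777) and were kept as 2 samples. The 11 remaining pairs had values of 24.6 to 141.1. At this depth 2 libraries of 1 pool can also differ by more than sampling noise. The test therefore cannot tell 2 biological replicates from 2 libraries of 1 pool. Markers of other tissues differed between the groups too. The summed normalized count of 5 shoot meristem genes was 370 to 754 in *rtnlb16-1* LD, 2.74 to 8.8 in Col-0 LD, 342 to 366 in *rtnlb16-1* CLL and 10 to 347 in Col-0 CLL, and that of 6 flower genes was 281 to 651, 75.6 to 94.6, 211 to 412 and 25.6 to 60.1 in the same order. STM of the shoot meristem list and AP1 and LFY of the flower list were listed at 0 in all 3 Col-0 LD libraries. Other genes of the flower list made up its sum of 75.6 to 94.6 there. In such mixed bulk samples, fewer cells of a type and less RNA per cell cannot be told apart.

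Under LD, 24 of the 31 SAUR genes were lower in *rtnlb16-1* than in Col-0 and none was higher. Over all 30388 genes tested, 5.41% were lower and 6% were higher by the same rule, which is a limma adjusted p under 0.01 and an absolute log2 fold change above 1. The median log2 fold change was -3.23 over the 31 genes and -0.00 over all genes. The chromosome 5, 1 and 3 clusters accounted for 17 of the 24 calls, with 6 of 6, 7 of 8 and 4 of 4 genes lower. The chromosome 4 clusters gave 2 of 5 and 3 of 3, and SAUR6 to SAUR10 gave 2 of 5.

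In the chromosome 5 cluster, which spans 21.5 kb (chr5:5962773-5984308 in TAIR10.1), the log2 fold changes ran between -5.24 and -3.23. SAUR21 (AT5G18030) had the highest mean of the 6. It stood at 244, 116 and 268 normalized counts in *rtnlb16-1* LD libraries, against 1350, 3106 and 2665 in Col-0 LD libraries, a log2 fold change of -3.50 (SE 0.34, limma adjusted p = 8.19e-06). The lowest Col-0 library, 47, was still far above the highest *rtnlb16-1* library. SAUR22 (AT5G18050) showed the largest fold of the cluster, with 7.74, 7.91 and 8.33 normalized counts in *rtnlb16-1* against 249, 329 and 476 in Col-0, a log2 fold change of -5.24 (SE 0.39, limma adjusted p = 7.39e-07). SAUR19 (AT5G18010) followed with 5.16, 1.76 and 11.9 in *rtnlb16-1* against 126, 192 and 210 in Col-0, a log2 fold change of -4.84 (SE 0.59, limma adjusted p = 4.71e-05). For each of these genes the groups were separated by a wide gap. The 6 genes summed to 480 ± 138 normalized counts in *rtnlb16-1* LD and 6136 ± 2169 in Col-0 LD (SD, n = 3 each).

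The 6 coding sequences of this cluster are near copies, with 87.7% to 95.2% identity between pairs (median 91.2%). Their first 60 bases, read from RefSeq TAIR10.1, are printed to show how alike the 6 called genes are. Capitals mark the 12 positions at which the 6 genes are not all alike.
SAUR19, chr5:5963246-5963305, minus strand: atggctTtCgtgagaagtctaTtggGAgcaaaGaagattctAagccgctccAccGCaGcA
SAUR20, chr5:5966521-5966580, minus strand: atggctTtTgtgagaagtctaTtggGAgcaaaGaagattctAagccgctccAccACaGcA
SAUR21, chr5:5968527-5968586, plus strand: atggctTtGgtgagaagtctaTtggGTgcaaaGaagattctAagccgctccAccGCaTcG
SAUR22, chr5:5974904-5974963, minus strand: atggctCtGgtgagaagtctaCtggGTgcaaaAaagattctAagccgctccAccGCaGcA
SAUR23, chr5:5976030-5976089, plus strand: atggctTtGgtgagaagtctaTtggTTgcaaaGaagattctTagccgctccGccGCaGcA
SAUR24, chr5:5983840-5983899, plus strand: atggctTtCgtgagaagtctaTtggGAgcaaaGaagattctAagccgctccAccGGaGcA
Only reads assigned unambiguously to 1 gene were counted. Of the exonic windows of 50 bases in SAUR19, 18.5% also occur elsewhere in the genome, against 5.19% in SAUR21 and 0.573% in SAUR22, and so the level of SAUR19 is less certain than those of its neighbours.

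The chromosome 1 cluster spans 21.9 kb (chr1:10301377-10323239). Its leading member, SAUR65 (AT1G29460), had 83.9, 93.2 and 98.8 normalized counts in *rtnlb16-1* LD libraries, against 729, 760 and 1554 in Col-0 LD libraries, with a log2 fold change of -3.36 (SE 0.34, limma adjusted p = 9.69e-06). The *rtnlb16-1* libraries were nearly level, and library 49 was the highest of the Col-0 libraries. SAUR62, SAUR63, SAUR64, SAUR66 and SAUR67 were lower as well, by log2 fold changes between -3.86 and -2.84. SAUR63, whose product promotes elongation of hypocotyls and stamen filaments, had 52.9, 48.4 and 69.1 in *rtnlb16-1* against 433, 482 and 865 in Col-0. SAUR68 rests on 1 read in *rtnlb16-1* and 33 reads in Col-0, a ratio of 0.022 (95% counting interval 0.00054 to 0.131). SAUR61 is the member of the cluster that was not called, at 11.6, 6.15 and 3.57 in *rtnlb16-1* against 14.3, 12.3 and 42.5 in Col-0, with a log2 fold change of -1.48 (95% interval -2.72 to -0.23, limma adjusted p = 0.0883). It is also one of the least expressed. Exonic windows of 50 bases are repeated elsewhere for 33.9% of SAUR67, 27.1% of SAUR63 and 23.2% of SAUR62, and the levels of these 3 are the less certain for it.

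The chromosome 3 cluster is compact, with 4 genes in 7.05 kb (chr3:976715-983768), and the 4 genes fell by similar amounts. SAUR29 (AT3G03820), its leading member, had 59.4, 100 and 85.7 normalized counts in *rtnlb16-1* LD libraries, against 784, 735 and 1849 in Col-0 LD libraries (log2 fold change -3.66, SE 0.41, limma adjusted p = 2.48e-05). SAUR26 (AT3G03850), a gene of which natural variants have been tied to growth at raised temperature, had 34.8, 17.6 and 21.4 in *rtnlb16-1* against 360, 500 and 702 in Col-0 (log2 fold change -4.35, SE 0.34, limma adjusted p = 1.07e-06). In both genes every *rtnlb16-1* library was far below every Col-0 library. SAUR28 and SAUR27 lay between them at -3.95 and -4.04.

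On chromosome 4 the falls were smaller and less uniform. SAUR14 and SAUR16 had the highest means of the 31 genes in Col-0 LD. SAUR14 (AT4G38840) had 3539, 2335 and 3319 normalized counts in *rtnlb16-1* LD libraries, against 4675, 5617 and 9837 in Col-0 LD libraries, a log2 fold change of -1.08 (SE 0.26, limma adjusted p = 0.00845). That call was kept in only 2 of 12 fits that each left out 1 library, those without library 47 or 65. SAUR16 was at -1.57 (SE 0.29, limma adjusted p = 0.0012) and SAUR15, an auxin-induced gene also known as SAUR-AC1, at -2.17 (SE 0.33, limma adjusted p = 0.000345). In the other chromosome 4 cluster, SAUR3 (AT4G34790) had 46.5, 33.4 and 59.5 in *rtnlb16-1* against 133, 135 and 267 in Col-0 (log2 fold change -1.88, SE 0.32, limma adjusted p = 0.000775), and SAUR1 was called at -2.07. Both genes lay lower in every *rtnlb16-1* library than in any Col-0 library. SAUR4 pointed the other way, with 102, 63.3 and 95.2 in *rtnlb16-1* against 14.3, 51 and 59 in Col-0, but its log2 fold change of 1.25 did not pass (95% interval 0.20 to 2.29, limma adjusted p = 0.0867). SAUR5 was at -0.64 (95% interval -1.59 to 0.32), and SAUR2 was at 0 in all 6 LD libraries, so no fold is given.

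The genes SAUR6 to SAUR10 did not move together. SAUR6 (AT2G21210) was among the most abundant SAUR transcripts and overlapped between genotypes, with 4235, 3052 and 4289 normalized counts in *rtnlb16-1* LD libraries against 2261, 2711 and 5401 in Col-0 LD libraries (log2 fold change 0.25, 95% interval -0.35 to 0.84). Its exons overlap those of SAUR7 on the same strand, and SAUR7 was at 0.10 (95% interval -0.96 to 1.16). SAUR8 (AT2G16580) had the largest value in the direction opposite to most of the 31, with 29.7, 32.5 and 57.1 in *rtnlb16-1* against 14.3, 14.1 and 12.3 in Col-0. Every *rtnlb16-1* library was above every Col-0 library, yet the log2 fold change of 1.43 did not pass (SE 0.48, limma adjusted p = 0.0464). SAUR9 was called at -1.68 (SE 0.42, limma adjusted p = 0.0096), a call kept in 2 of 12 fits with 1 library left out, those without library 47 or 48. SAUR10 (AT2G18010) was all but lost in *rtnlb16-1*, with 0, 2.64 and 0 normalized counts against 54.3, 33.4 and 108 in Col-0. That is 3 reads against 136, a ratio of 0.016 (95% counting interval 0.00326 to 0.0478).

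For each of the 24 called genes the two-sided exact permutation p was 0.1, and 3 libraries against 3 allow none smaller. SAUR61, SAUR4, SAUR5 and SAUR8, which were not called, reached the same exact permutation p of 0.1. This p therefore does not set the called genes apart. Of the 24 calls, 22 were kept in all 12 fits with 1 library left out, SAUR14 and SAUR9 being the exceptions, and the sign of each of the 24 was the same in every alternative. Within Col-0 LD the libraries had a common order, library 49 being the highest of its group in 27 of the 30 genes with at least 10 normalized counts in at least 3 libraries. The LD groups also differed in tissue markers, since 3 of 5 shoot meristem genes, 5 of 6 flower genes and 6 of 6 genes of dividing cells were higher in *rtnlb16-1*, and 1 of 6 green leaf genes was lower. Green leaf markers were abundant in all 12 libraries, with sums of 1274693 to 2191533 in *rtnlb16-1* LD and 3036056 to 5326066 in Col-0 LD. The part of these differences in the SAUR values was not tested.

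**Figure D1:**
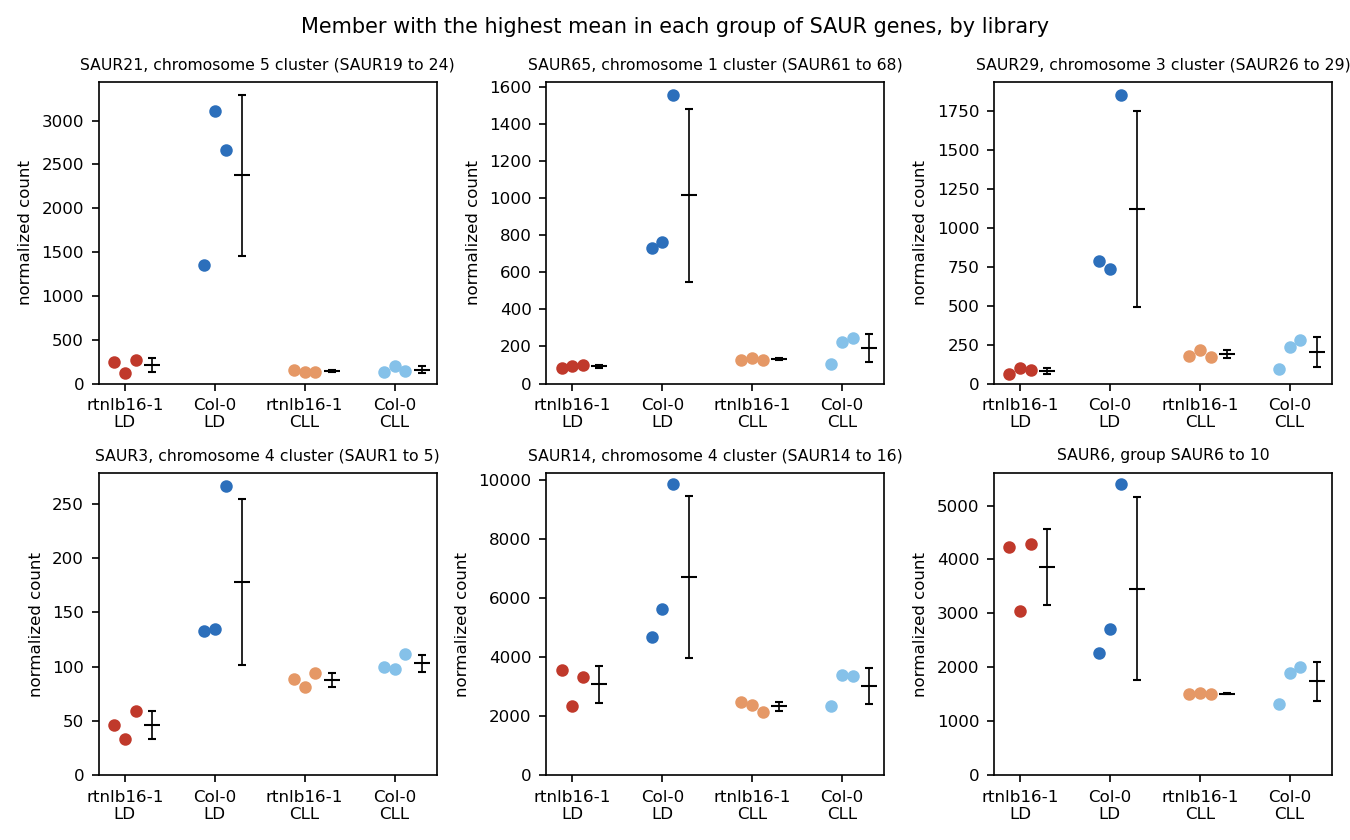
Normalized count (y axis, linear from 0) of the member with the highest mean in each of the 6 groups of SAUR genes, by group of libraries on the x axis. Each point is 1 library, and the dash beside the points is the mean with its whiskers the SD of 3 libraries. For SAUR21, SAUR65, SAUR29 and SAUR3 the Col-0 LD libraries lie above all other libraries, whereas SAUR6 overlaps between *rtnlb16-1* LD (3052 to 4289) and Col-0 LD (2261 to 5401).

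**Figure D2:**
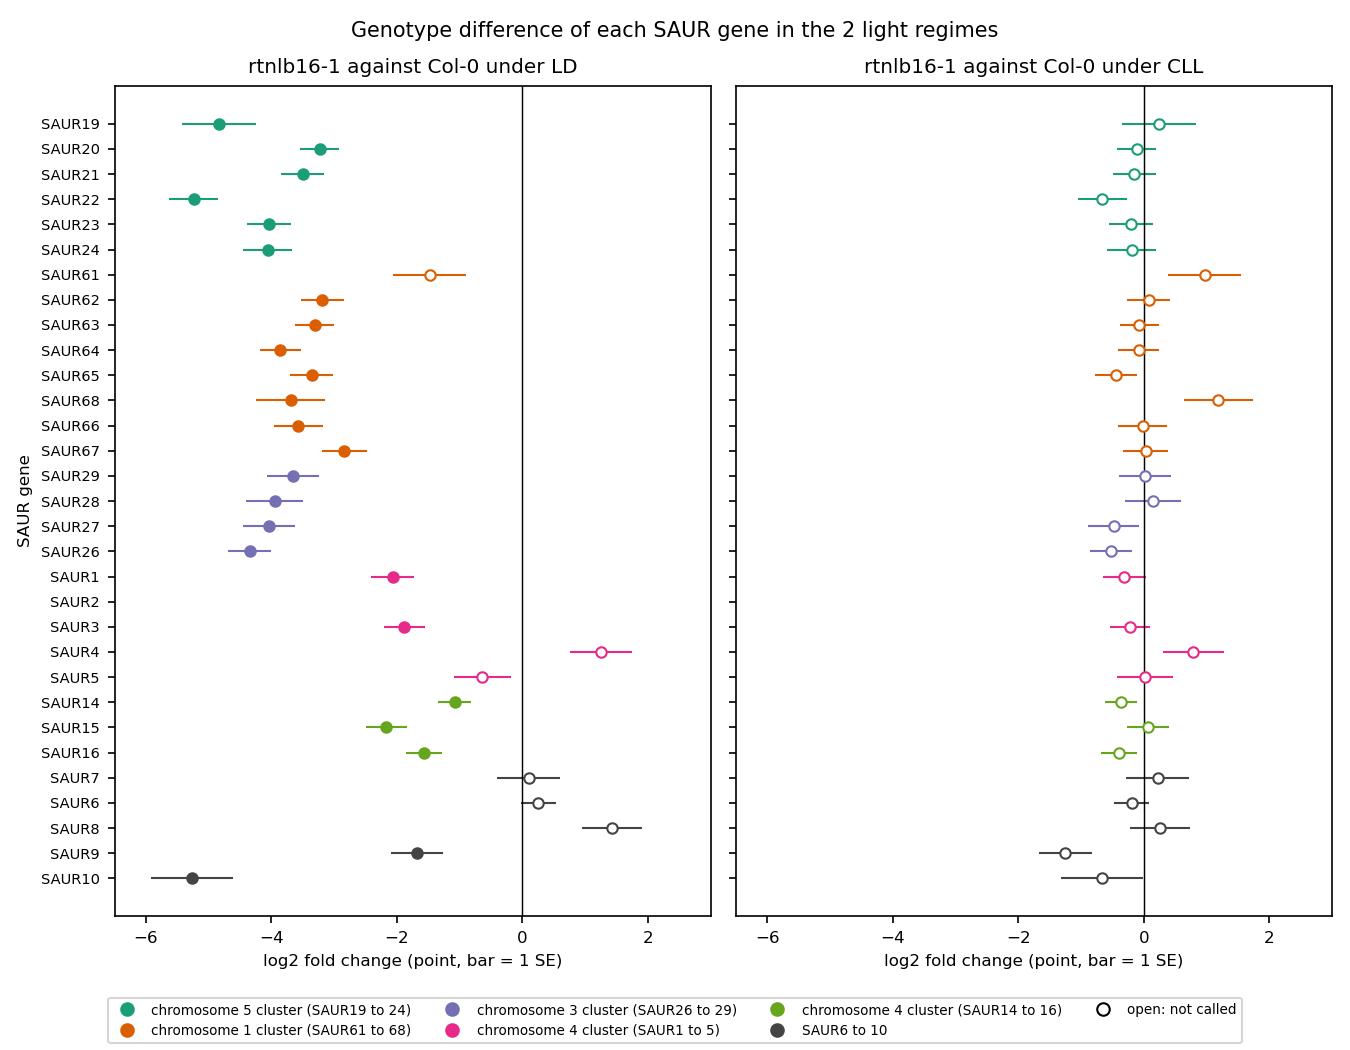
Log2 fold change of *rtnlb16-1* against Col-0 (x axis, with 1 SE) for each SAUR gene (y axis, grouped by cluster), under LD on the left and CLL on the right. Filled points passed the rule of an adjusted p under 0.01 and an absolute log2 fold change above 1, which 24 genes did under LD and 0 under CLL, and SAUR2, with too few reads for a fold, has no point.

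Upstream sequence of the 31 genes was searched because so many of them fell together. In the 500 bases before the outermost annotated mRNA start, 26 of the 31 genes (83.9%) hold the letters CACATG or their reverse complement CATGTG, against 21% of 27560 protein-coding genes and 29.8% of 47 other SAUR genes. CACATG is one form of the E-box, the hexamer family that basic helix-loop-helix factors such as the PIFs bind. There are 50 matches in all, and 23 genes have one within 200 bases of the start. Counted instead before the start of the coding sequence, 27 of 31 genes (87.1%) hold the letters, against 17.8% of the protein-coding genes. As tandem copies share sequence by descent, these counts are a description only, and a match is not a binding site.

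The letters occur both in genes that fell and in genes that were not called. They are found in 21 of the 24 genes called lower under LD (87.5%) and in 5 of the 7 others (71.4%). SAUR20, SAUR23 and SAUR10 were lower without a match in the window, and SAUR4, SAUR5, SAUR6, SAUR8 and SAUR61 have a match and were not called. The G-box CACGTG occurs in 0 of the 31 genes, against 9.32% of the protein-coding genes. The auxin response elements TGTCTC and TGTCGG occur in 8 (25.8%) and 4 (12.9%) of the 31, against 21.3% and 7.7%, and the brassinosteroid response element CGTGTG in 1 (3.23%) against 9.2%. Each was searched on both strands. Overlapping matches were counted separately.

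The chromosome 5 genes show how 1 stretch differs among copies. For the 5 genes that hold the stretch within 200 bases of the mRNA start, its 30 bases are printed from RefSeq TAIR10.1, with CATGTG in capitals where it is complete. SAUR20 and SAUR24 lack the complete hexamer here, and both were lower in *rtnlb16-1* under LD, at -3.23 and -4.06, as were the 3 genes that hold it.
SAUR19, chr5:5963511-5963540, minus strand: taaagacagaacCATGTGaactcttgctct
SAUR20, chr5:5966783-5966812, minus strand: tagagacagaaccatgttctctgttctagt
SAUR21, chr5:5968298-5968327, plus strand: taaagacagaacCATGTGagctctgttcta
SAUR22, chr5:5975175-5975204, minus strand: tagagacagaacCATGTGaactcttgctct
SAUR24, chr5:5983606-5983635, plus strand: taaagacaaagccatgttctctgttttagt

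The 200 bases upstream of the mRNA start of the leading gene of each group were read from the same genome, with the hexamer in capitals, together with SAUR10, which has none in its window. They show the position of the hexamer in genes with large (SAUR21, SAUR65, SAUR29), moderate (SAUR3, SAUR14) and undetected (SAUR6) falls.
SAUR21, chr5:5968152-5968351, plus strand: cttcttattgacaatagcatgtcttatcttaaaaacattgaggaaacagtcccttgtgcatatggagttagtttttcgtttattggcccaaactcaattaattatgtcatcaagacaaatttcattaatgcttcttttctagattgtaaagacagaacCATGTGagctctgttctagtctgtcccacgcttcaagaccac
SAUR65, chr1:10308247-10308446, minus strand: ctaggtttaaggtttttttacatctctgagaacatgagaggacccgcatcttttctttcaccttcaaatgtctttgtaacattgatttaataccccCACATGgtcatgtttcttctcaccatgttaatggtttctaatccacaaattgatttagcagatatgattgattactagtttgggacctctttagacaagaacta
SAUR29, chr3:977475-977674, minus strand: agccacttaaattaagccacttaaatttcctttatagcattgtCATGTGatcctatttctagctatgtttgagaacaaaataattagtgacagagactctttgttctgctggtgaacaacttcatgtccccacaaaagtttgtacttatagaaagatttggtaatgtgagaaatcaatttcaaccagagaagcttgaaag
SAUR3, chr4:16594162-16594361, plus strand: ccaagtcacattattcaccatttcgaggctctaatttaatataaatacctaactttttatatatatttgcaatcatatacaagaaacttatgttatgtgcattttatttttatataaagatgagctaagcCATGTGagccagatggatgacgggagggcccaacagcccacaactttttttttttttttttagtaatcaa
SAUR14, chr4:18125560-18125759, minus strand: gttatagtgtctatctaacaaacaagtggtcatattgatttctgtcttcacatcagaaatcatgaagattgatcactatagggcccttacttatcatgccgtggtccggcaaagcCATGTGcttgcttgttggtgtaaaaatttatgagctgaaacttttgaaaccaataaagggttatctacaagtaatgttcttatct
SAUR6, chr2:9086030-9086229, minus strand: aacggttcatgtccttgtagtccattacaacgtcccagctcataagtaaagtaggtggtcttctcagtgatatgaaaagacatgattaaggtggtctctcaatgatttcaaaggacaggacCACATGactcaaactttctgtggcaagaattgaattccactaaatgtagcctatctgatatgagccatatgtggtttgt
SAUR10, chr2:7833582-7833781, plus strand: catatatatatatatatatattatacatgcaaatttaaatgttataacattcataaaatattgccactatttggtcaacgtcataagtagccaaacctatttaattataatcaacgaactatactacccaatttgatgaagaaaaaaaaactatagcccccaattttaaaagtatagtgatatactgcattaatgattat

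**Figure D3:**
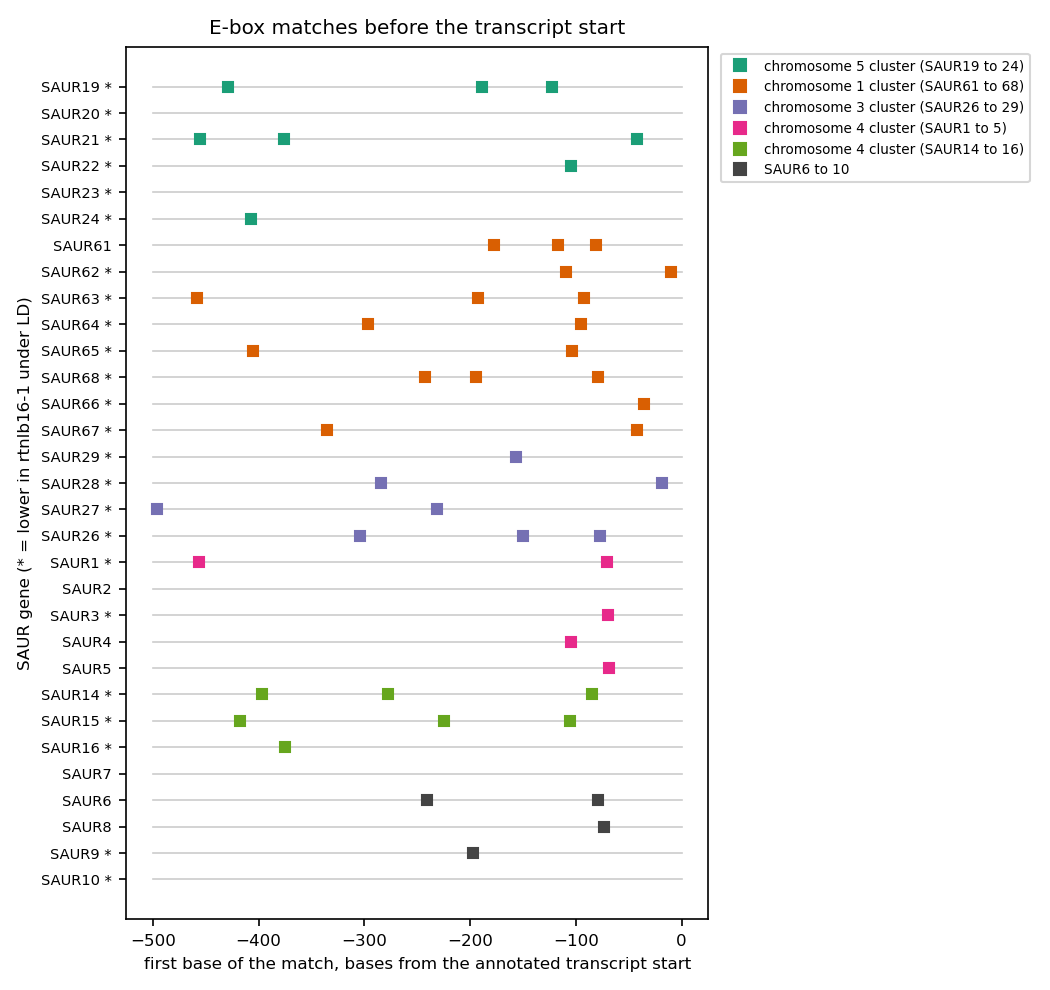
Position of each CACATG or CATGTG match (squares) on the x axis, in bases from the annotated transcript start, for the 31 SAUR genes on the y axis. Stars mark the genes that were lower in *rtnlb16-1* under LD, and of the 50 matches many lie within 200 bases of the start, in 23 genes.

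Other genes between the clustered members were looked up after the values had been seen, to compare the SAUR genes with their immediate neighbours. Of 24 such genes, 18 were tested and 9 had a mean of at least 10 normalized counts. The 24 include SAUR73, which is below that mean and is also counted among the other SAUR genes. Of these 9, 8 were not called under LD and 1 was lower, against 5.41% of all genes lower. The lower one is AT5G02865, annotated as a long noncoding RNA, in the chromosome 5 cluster, with 12.9, 13.2 and 22.6 normalized counts in *rtnlb16-1* LD libraries against 163, 201 and 352 in Col-0 LD libraries (log2 fold change -3.76, SE 0.50, limma adjusted p = 0.000102). The protein-coding neighbours AT5G18040, AT5G18065 and DRT101, which lie between SAUR genes of that cluster, were at -0.51, 0.46 and 0.30. On chromosome 1, the methyltransferase gene AT1G29470 was at -0.37, whereas AT1G29465 was at -1.69 (limma adjusted p = 0.0122). The remaining 3 are annotated as small nucleolar RNAs, at -1.62, -1.77 and -1.68. The median of the 9 was -1.62, against -0.00 over all genes, and the 8 uncalled neighbours ran from -1.77 to 0.46. The mean for this cut-off was taken over all 12 libraries, so a gene can pass it through high values in Col-0 LD. AT1G06267, whose -1.62 is the median, had 24.3, 29.9 and 38.4 in Col-0 LD libraries and at most 13.1 in any other library. All genes were not filtered in this way, so the median and the 1 call cannot be weighed against them. Whether reads were counted by strand is not given in the sources used here. SAUR61, SAUR63, SAUR64, SAUR7 and SAUR8 overlap a gene on the opposite strand, and their reads may include some of that gene.

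Under CLL, 0 of the 31 genes were higher and 0 were lower in *rtnlb16-1* than in Col-0, against 0.836% and 0.711% of all genes. At an unadjusted p under 0.05, 1 gene was higher (SAUR68) and 1 was lower (SAUR9), and edgeR and DESeq2 on the recovered reads called 0 as well. The median log2 fold change was -0.08 over the 31 genes and 0.03 over all genes. SAUR21 had 155, 133 and 132 normalized counts in *rtnlb16-1* CLL libraries, against 130, 204 and 139 in Col-0 CLL libraries, a log2 fold change of -0.15 (95% interval -0.88 to 0.59). The groups overlapped, and each of these 6 libraries was far below the lowest Col-0 LD library at 1350. SAUR65 had 128, 140 and 128 in *rtnlb16-1* against 103, 226 and 245 in Col-0 (log2 fold change -0.44, 95% interval -1.16 to 0.29). SAUR29 had 179, 216 and 167 in *rtnlb16-1* against 92.9, 236 and 281 in Col-0 (log2 fold change 0.02, 95% interval -0.86 to 0.90).

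For the 18 genes of the chromosome 5, 1 and 3 clusters, the 95% intervals of the CLL difference reached down to -1.50 (SAUR22) and up to 2.37 (SAUR68). Changes inside a gene's own interval remain compatible with its values. SAUR3 had 88.2, 81.6 and 94.4 in *rtnlb16-1* against 99.3, 97.7 and 112 in Col-0, with a log2 fold change of -0.22 (95% interval -0.91 to 0.47). SAUR14 was at -0.36 (95% interval -0.92 to 0.20) and SAUR6 at -0.19 (95% interval -0.78 to 0.41). The largest value among the 31 in the lower direction was that of SAUR9, with 54.5, 52.2 and 41.8 in *rtnlb16-1* against 131, 133 and 94.2 in Col-0. The groups did not overlap, but the log2 fold change of -1.25 did not pass (SE 0.42, limma adjusted p = 0.125). Library 65 was the lowest of the Col-0 CLL libraries in 23 of 30 genes. The flower markers were higher in *rtnlb16-1* for 3 of 6 genes under CLL, and 0 of 5 shoot meristem genes were called.

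The Col-0 plants themselves differed between the light regimes. These regimes differ in both day length and light intensity, and the time of day of harvest is not given in the sources used here. Of the 31 genes, 20 were higher under LD than under CLL in Col-0 and 0 were lower, against 2.1% and 3.83% of all genes. The median log2 fold change was 2.15 over the 31 genes and -0.05 over all genes. All 18 genes of the chromosome 5, 1 and 3 clusters were higher, with cluster medians of 3.36, 2.12 and 2.45, as were SAUR15 and SAUR16. The SAUR1 to SAUR5 cluster and SAUR6 to SAUR10 held 0 calls. This comparison shares the Col-0 LD libraries with the genotype comparison under LD and the Col-0 CLL libraries with that under CLL, so the 3 are not independent of each other.

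SAUR21 had 1350, 3106 and 2665 normalized counts in Col-0 LD libraries, against 130, 204 and 139 in Col-0 CLL libraries, a log2 fold change of 3.85 (SE 0.34, limma adjusted p = 1.09e-05). SAUR19 was at 3.62 (SE 0.59, limma adjusted p = 0.00101), with 126, 192 and 210 in LD against 6.35, 18.3 and 18.5 in CLL. SAUR22 was at 3.42 (SE 0.39, limma adjusted p = 8.8e-05), with 249, 329 and 476 in LD against 24.2, 38.3 and 31.4 in CLL. The light regimes were fully separated in these 3 genes. SAUR65 had 729, 760 and 1554 in LD against 103, 226 and 245 in CLL (log2 fold change 2.41, SE 0.34, limma adjusted p = 0.000359). SAUR29 had 784, 735 and 1849 in LD against 92.9, 236 and 281 in CLL (log2 fold change 2.47, SE 0.41, limma adjusted p = 0.0012). The highest CLL library of either gene was under the lowest LD library. SAUR14 did not pass at 1.10 (95% interval 0.54 to 1.66, limma adjusted p = 0.0124), nor did SAUR3 at 0.71 (95% interval 0.02 to 1.40) or SAUR6 at 0.91 (95% interval 0.31 to 1.50). SAUR8 had the largest value in the lower direction, at -0.79 (95% interval -1.81 to 0.23).

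Without library 49, and also without library 65, 15 of these 20 calls were kept, those lost being SAUR16, SAUR28, SAUR61, SAUR62 and SAUR66. The Col-0 CLL libraries were uneven in shoot meristem markers, which summed to 347, 10 and 188 in libraries 65, 66 and 67, while the sum was 2.74 to 8.8 in Col-0 LD. Under LD 2 of 5 shoot meristem genes and 3 of 6 genes of dividing cells were lower than under CLL, and 1 of 6 flower genes and 2 of 6 green leaf genes were higher. Library 66, at the level nearest to Col-0 LD, had a chromosome 5 cluster sum of 654 normalized counts, against 3744, 6690 and 7975 in Col-0 LD libraries 47, 48 and 49. Library 66 was singled out after its marker values had been seen, and with it as the sole Col-0 CLL library 0 of the 31 genes passed, while 39 genes were higher and 231 lower over the whole table. The log2 fold changes of the 20 genes were then 1.16 to 4.08 (median 2.16), a description of 1 library. The part of the marker differences in the SAUR values was not tested.

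In *rtnlb16-1* few of these genes were called between the light regimes. Of the 31, 1 was higher under LD than under CLL and 2 were lower, against 1.93% and 3.28% of all genes, and the median log2 fold change was -0.83 over the 31 genes and -0.09 over all genes. SAUR6 had 4235, 3052 and 4289 normalized counts in *rtnlb16-1* LD libraries against 1506, 1513 and 1496 in *rtnlb16-1* CLL libraries (log2 fold change 1.34, SE 0.28, limma adjusted p = 0.0056). SAUR62 had 78.7, 94.1 and 54.8 in LD against 297, 264 and 184 in CLL (log2 fold change -1.70, SE 0.34, limma adjusted p = 0.00486). SAUR64 had 38.7, 57.1 and 61.9 in LD against 187, 176 and 145 in CLL (log2 fold change -1.69, SE 0.33, limma adjusted p = 0.00427). All 3 genes were separated between the regimes, in opposite directions. SAUR21 overlapped, with 244, 116 and 268 in LD against 155, 133 and 132 in CLL (log2 fold change 0.49, 95% interval -0.24 to 1.23). SAUR65 was at -0.52 (95% interval -1.24 to 0.21), SAUR29 at -1.21 (95% interval -2.09 to -0.33), SAUR3 at -0.94 (95% interval -1.63 to -0.25) and SAUR14 at 0.38 (95% interval -0.18 to 0.94). Of the tissue markers, 2 of 6 green leaf genes were higher under LD and none of the others was called.

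The counts of this comparison depend on single libraries. None of the 3 calls was kept without library 50, 68 or 69, only that of SAUR64 without library 52, and only that of SAUR62 without library 70. With libraries 68 and 69 merged into 1 sample 0 genes passed in either direction. On the recovered reads, 8 genes by edgeR and 7 by DESeq2 were lower. Each of the 3 genes kept its sign in all of these settings.

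The difference between the 2 genotype effects, that under LD minus that under CLL, was tested as an interaction. It was lower than 0 in 17 of the 31 genes and higher in 0, against 0.533% and 0.395% of all genes. The 17 are all 6 genes of the chromosome 5 cluster, 7 of 8 on chromosome 1 (all but SAUR61) and all 4 on chromosome 3. The median over the 31 genes was -3.12 on the log2 scale and 0.00 over all genes. Among the 17 called genes the difference was largest in SAUR19, at -5.09 (SE 0.83, limma adjusted p = 0.00486), SAUR68, at -4.87 (SE 0.78, limma adjusted p = 0.00428), and SAUR22, at -4.58 (SE 0.56, limma adjusted p = 0.0006). The value of SAUR68 rests on few reads and is no bound, and the same holds for SAUR10, at -4.60, which did not pass (SE 0.92, limma adjusted p = 0.0147). SAUR21 was at -3.35 (SE 0.49, limma adjusted p = 0.00224), SAUR65 at -2.92 (SE 0.48, limma adjusted p = 0.00488) and SAUR29 at -3.68 (SE 0.58, limma adjusted p = 0.00413). SAUR3 at -1.66 (95% interval -2.63 to -0.68), SAUR14 at -0.72 (95% interval -1.51 to 0.08) and SAUR6 at 0.43 (95% interval -0.41 to 1.27) did not pass, and SAUR8 had the largest value in the other direction, 1.17 (95% interval -0.28 to 2.61).

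The number of interaction calls leaned on the near-identical pair of libraries. With libraries 68 and 69 merged into 1 sample, 4 of the 17 calls were kept (SAUR22, SAUR23, SAUR26 and SAUR64), and over all genes 21 were higher and 45 lower. Without library 68 alone 5 were kept and without library 69 alone 4, while 11 were kept without library 70, 11 without library 52 and 10 without library 65. With edgeR and DESeq2 on the recovered reads, 19 and 21 of the 31 genes were lower. With library 66 as the sole Col-0 CLL library none of the 31 passed, while the 17 genes ranged between -5.73 and -2.44.

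**Figure D4:**
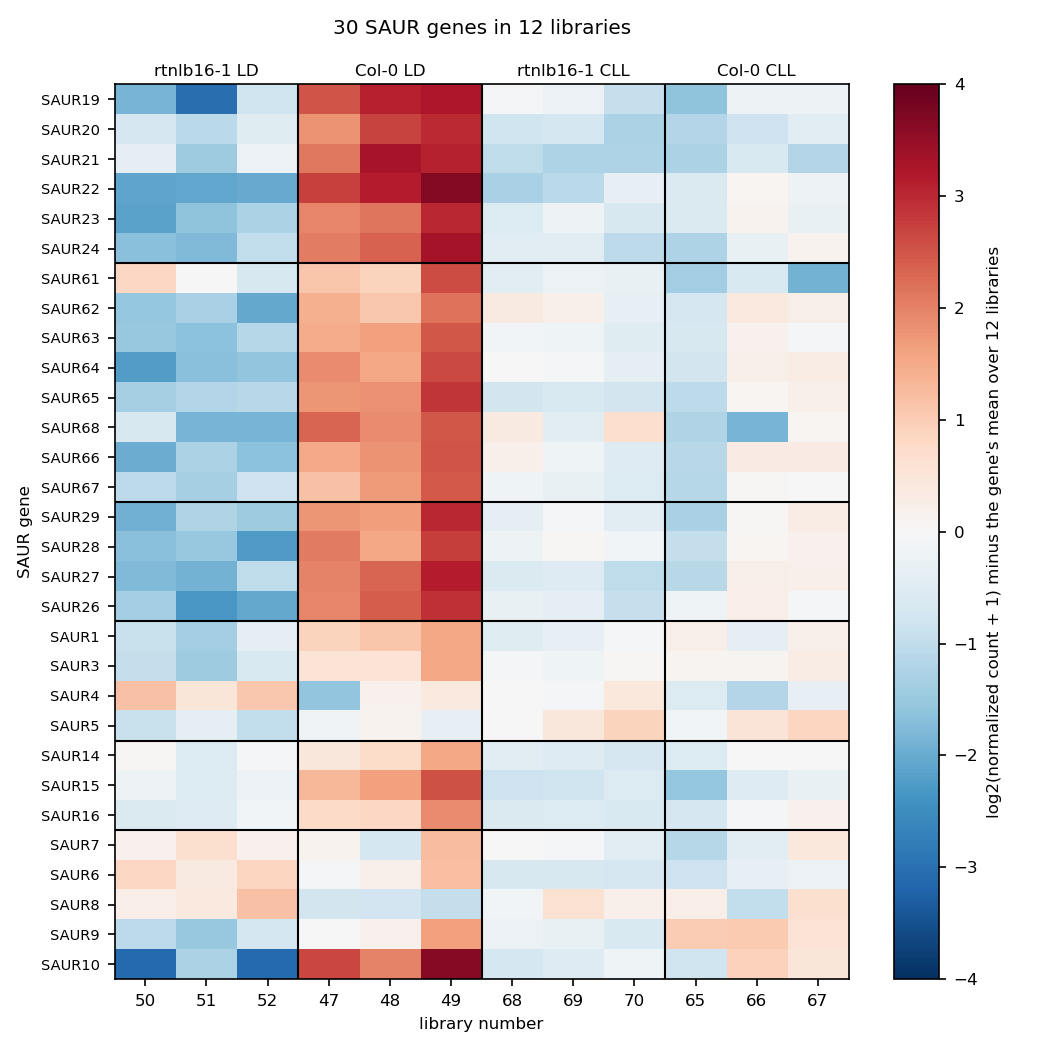
Log2(normalized count + 1) minus the mean of each gene over the 12 libraries, as colour from blue (low) to red (high), for the 30 SAUR genes with at least 10 normalized counts in at least 3 libraries (y axis) in the 12 libraries (x axis, by label number). The block of SAUR19 to SAUR24, SAUR61 to SAUR68 and SAUR26 to SAUR29 is red in the 3 Col-0 LD libraries, among which library 49 is the highest in 27 of the 30 genes.

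Among themselves the 31 genes differed widely in level. Scaled by exon length, SAUR14 had the highest mean in Col-0 LD at 11529 normalized counts per kilobase, followed by SAUR16 at 5569, SAUR20 at 3249, SAUR21 at 2829 and SAUR6 at 2466. The genes were also unequal in what they shared. The Pearson correlation of each gene with the mean of the standardized genes, over 12 libraries that include the 4 groups, was between 0.863 and 0.991 for most, but 0.688 for SAUR61, 0.62 for SAUR9, 0.322 for SAUR6, 0.319 for SAUR7, 0.114 for SAUR5, -0.276 for SAUR4 and -0.712 for SAUR8. This mean contains each gene itself and is given as a description.

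The make-up of the SAUR reads shifted with genotype and light. All 31 genes summed to 10344 ± 1689 normalized counts in *rtnlb16-1* LD, 30633 ± 12686 in Col-0 LD, 7781 ± 418 in *rtnlb16-1* CLL and 9601 ± 2339 in Col-0 CLL (SD, n = 3 each). The chromosome 5 cluster made up 3.95% to 5.22% of this sum in *rtnlb16-1* LD libraries, against 17.7% to 25.8% in Col-0 LD libraries. The chromosome 1 cluster made up 3.59% to 5.27% against 13.6% to 16.4%, and the chromosome 3 cluster 1.17% to 1.78% against 6.84% to 7.88%. The shares of the 3 clusters did not overlap between genotypes under LD. SAUR6 to SAUR10, nearly all of it SAUR6, took 37.8% to 39.7% in *rtnlb16-1* LD against 11% to 13% in Col-0 LD, while its sum was 3993 ± 699 against 3717 ± 1853 (SD, n = 3 each). The larger share thus came with sums that overlapped. Under CLL the chromosome 5 cluster made up 5.84% to 6.82% in *rtnlb16-1* and 5.85% to 6.15% in Col-0, and SAUR14 to SAUR16 made up 52.2% to 53.4% in *rtnlb16-1* and 55.1% to 56.5% in Col-0.

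**Figure D5:**
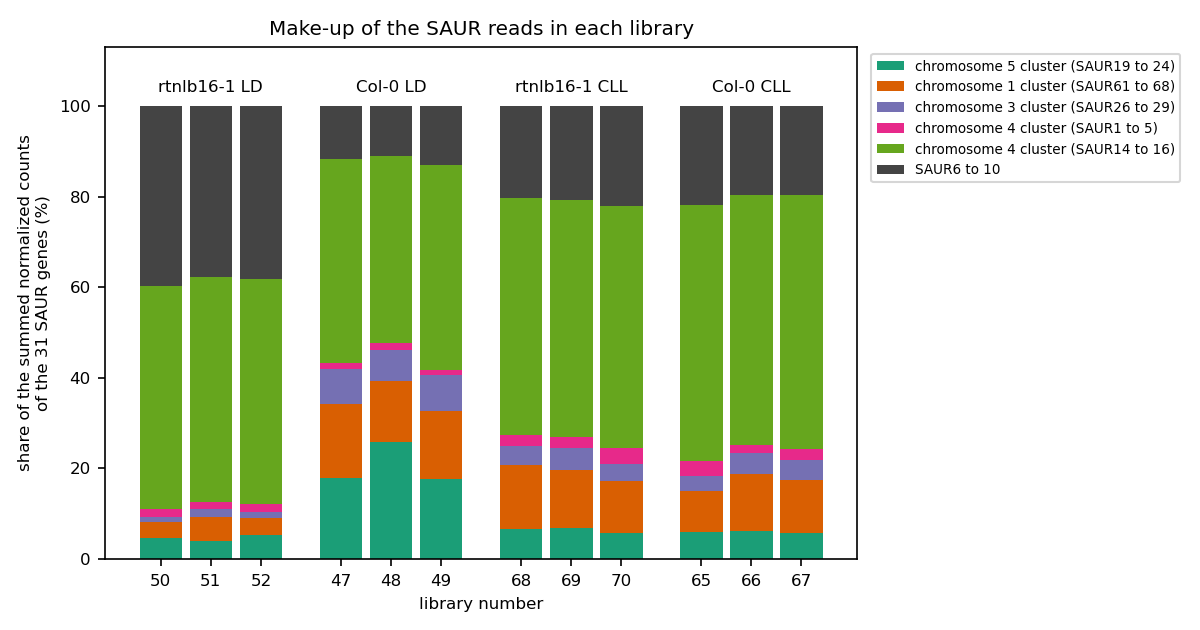
Share of each cluster in the summed normalized counts of the 31 SAUR genes (y axis, percent) for each of the 12 libraries (x axis, by label number and group). The chromosome 5, 1 and 3 clusters together are the narrow base of the 3 *rtnlb16-1* LD bars and nearly reach the middle of the 3 Col-0 LD bars, while SAUR6 to SAUR10 take 37.8% to 39.7% of the *rtnlb16-1* LD bars.

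The rest of the SAUR family held calls in both directions. Of 47 other SAUR genes, 43 were tested, and under LD 2 were higher and 6 lower in *rtnlb16-1*, against 6% and 5.41% of all genes. Higher calls were thus no more frequent than over all genes. The median log2 fold change of the 43 was -0.04. SAUR51 rose by 3.43 on the log2 scale, with 490, 343 and 557 normalized counts in *rtnlb16-1* against 40, 19.3 and 89.1 in Col-0. SAUR36, a gene that promotes leaf senescence, rose by 2.63, with 241, 190 and 300 in *rtnlb16-1* against 37.2, 28.1 and 52.1 in Col-0. SAUR78 was at -2.64, with 646, 447 and 623 in *rtnlb16-1* against 3621, 2927 and 4157 in Col-0, and SAUR32 at -1.49. SAUR78 and SAUR32 are the largest falls with a mean of at least 50 normalized counts. Of the scarcer genes, SAUR69 was at -2.25, with 9.03, 5.27 and 17.9 in *rtnlb16-1* against 38.6, 61.6 and 50.7 in Col-0, and SAUR46 had 0, 0 and 1.19 against 7.15, 14.1 and 8.23. The remaining calls were SAUR30 at -1.31 and SAUR50 at -1.10. The 2 genes that rose and SAUR78 were each fully separated between genotypes. Under CLL 0 were higher and 1 was lower (SAUR72, -1.55), against 0.836% and 0.711% of all genes. Between light regimes, 3 were higher under LD in Col-0 (SAUR34, SAUR46 and SAUR56) and 3 lower (SAUR42, SAUR71 and SAUR72), against 2.1% and 3.83%. In *rtnlb16-1* 0 were higher and 2 lower (SAUR42 and SAUR78), against 1.93% and 3.28%. The interaction was lower for 1, SAUR78 at -1.93, against 0.533% of all genes.

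Genes of the pathway on which SAUR proteins act were counted in short lists, so their counts are a description. Of 9 genes of clade D phosphatases, the targets that SAUR proteins inhibit, 0 were higher and 1 was lower in *rtnlb16-1* under LD. Over all genes 6% were higher and 5.41% lower. The median of the 9 was -0.05. That gene, AT5G02760, had 16.8, 17.6 and 25 normalized counts in *rtnlb16-1* LD libraries against 1311, 1865 and 802 in Col-0 LD libraries (log2 fold change -5.94, SE 0.30, limma adjusted p = 2.3e-08). Under CLL it was at -0.02, between light regimes at 2.32 in Col-0 and -3.59 in *rtnlb16-1*, and its interaction was -5.91. Like the chromosome 5 SAUR genes it was thus highest in Col-0 LD. Its *rtnlb16-1* LD level was far under both CLL levels. The *rtnlb16-1* LD means of SAUR19, SAUR22, SAUR23 and SAUR24 were also under both of their CLL means, whereas those of SAUR20 and SAUR21 were not. Under CLL 1 of the 9 genes was lower, AT5G06750 at -1.24, against 0.711% of all genes. Between LD and CLL in Col-0, 2 were higher (AT5G02760 and AT5G66080) and 1 lower (AT5G06750), against 2.1% and 3.83% of all genes.

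Of 11 genes of the plasma membrane proton pumps, 10 were tested. Under LD 2 were higher in *rtnlb16-1*, HA4 and HA9, and none was lower, against 6% and 5.41% of all genes. In the other comparisons 0 were called. HA1, the most abundant, had 21353, 19854 and 21443 normalized counts in *rtnlb16-1* LD libraries against 12599, 14528 and 9747 in Col-0 LD libraries, a log2 fold change of 0.78 that did not pass (limma adjusted p = 0.0176). Every *rtnlb16-1* LD library was above every Col-0 LD library for HA1. HA4 had 34.8, 41.3 and 50 in *rtnlb16-1* against 18.6, 10.6 and 12.3 in Col-0, and HA9 9.03, 5.27 and 3.57 against 1.43, 0 and 0, so both are scarce.

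Upstream of the SAUR genes, the 6 auxin receptor genes of the TIR1/AFB family had 0 calls in all 5 comparisons, and TIR1 was at 0.02 under LD. Of 12 auxin synthesis genes, 3 were higher (YUC1, YUC4 and TAR1) and 2 lower in *rtnlb16-1* under LD, against 6% and 5.41% of all genes. The 2 lower ones encode flavin monooxygenases of the last step. YUC8 had 3.87, 6.15 and 14.3 normalized counts in *rtnlb16-1* LD libraries against 90.1, 141 and 49.4 in Col-0 LD libraries (log2 fold change -3.42, SE 0.58, limma adjusted p = 0.000745), and YUC9 had 0, 0 and 3.57 against 28.6, 33.4 and 31.5. Both were low in every group but Col-0 LD. Both were higher under LD than under CLL in Col-0 (2 of 12, with 0 lower), against 2.1% and 3.83% of all genes. YUC1, higher under LD in *rtnlb16-1*, had 16.8, 7.03 and 7.14 there and was listed at 0 in the 3 Col-0 LD libraries. Under CLL 1 was higher, against 0.836% of all genes. It was TAR1, with 15.1, 18.5 and 29 in *rtnlb16-1* against 0.577, 0 and 0 in Col-0. In *rtnlb16-1* 2 were higher (YUC2 and TAR2) and 1 lower (TAR1) under LD than under CLL, against 1.93% and 3.28% of all genes. The interaction had 0 calls.

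Of 13 transcription factors of elongation growth, 1 was higher and 3 were lower in *rtnlb16-1* under LD, against 6% and 5.41% of all genes. PIF4, a basic helix-loop-helix factor that promotes elongation in shade and warmth, had 1215, 918 and 1191 normalized counts in *rtnlb16-1* LD libraries against 4305, 5877 and 4046 in Col-0 LD libraries (log2 fold change -2.09, SE 0.25, limma adjusted p = 4.02e-05). PIL5, also known as PIF1, was at -1.24, and BES1, a factor of brassinosteroid signalling, at -1.13. ARF6, an activating auxin response factor, rose by 1.83, with 3894, 3547 and 4149 in *rtnlb16-1* against 1196, 1377 and 768 in Col-0. PIF4 was fully separated between genotypes, as was ARF6 in the other direction. Under CLL 0 were called, and PIF4 was at -1.23 (limma adjusted p = 0.0117). Between LD and CLL, 2 were higher in Col-0 (PIF4 at 2.49 and PIL6 at 1.46), against 2.1% of all genes. In *rtnlb16-1* 2 were higher (PIF4 at 1.63 and ARF6 at 1.14), against 1.93% of all genes, and the interaction had 0 calls.

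The genes whose pattern was most like the mean of the SAUR genes were sought among 16622 genes with a mean of at least 50 normalized counts, by Pearson correlation over the 12 libraries. The 5 highest were ARR9 (0.969), a type A response regulator of cytokinin signalling, AT5G66580 (0.967), AT1G67865 (0.964), AT2G26695 (0.964) and IAA19 (0.96), an auxin-induced repressor of auxin response. IAA19 averaged 164 ± 21.9 normalized counts in *rtnlb16-1* LD, 1120 ± 177 in Col-0 LD, 201 ± 23.8 in *rtnlb16-1* CLL and 260 ± 37.9 in Col-0 CLL (SD, n = 3 each). ARR9 averaged 925 ± 46.3, 2507 ± 937, 935 ± 66.8 and 1095 ± 98.3 in the same order. As in the leading SAUR genes other than SAUR6, Col-0 LD stood apart from the other 3 groups. The libraries of a group share their conditions, so these correlations are descriptions without a test.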

How the data were processed

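Leaf RNA of 12 libraries, 3 biological replicates for each of 4 groups, was analysed. The authors aligned reads with STAR to TAIR10/Araport11, counted those unambiguously assigned to a gene with HTSeq and divided each library by its DESeq2 size factor. The deposited values are this signal, and 100% of them are whole reads times that factor (relative tolerance 1e-06). Read length and strand setting are not given in the sources used here. The members and gene lists were chosen with earlier results of these data known. Genes above 0 in at least 1 library (30388) were fitted on log2(value + 1) with limma 3.58.1 in R 4.3.3, with 4 group means and a trended prior, so fold changes of low genes are understated. P-values were adjusted over all genes by Benjamini-Hochberg, and a call needs an adjusted p under 0.01 and an absolute log2 fold change above 1. Exact permutation tests were two-sided, and 95% intervals are those of the limma fit, or cover counting error only where reads are given. Nothing beyond the label of biological replicates says how the pools were separated, so p-values measure the spread between these libraries.

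All 31 genes are accounted for. Values by library are given for the gene of highest mean in each group, the 3 largest called folds and the largest fold against the majority in each comparison, for other SAUR genes the largest called folds among those with a mean of at least 50, and for other lists the largest called genes or, with none, the gene of highest mean. Gene AT1G29510 is called SAUR67 and AT1G29490 SAUR68, and 37051 IDs, including the 31, were found in RefSeq TAIR10.1, which gave names, coordinates and sequences. Other SAUR genes with 2 conflicting symbols were left out. As alternatives, the pseudocount was set to 0.5 or 5, genes that reached 10 in fewer than 3 libraries were removed, TMM or upper-quartile factors were applied, the 2 compared groups were fitted alone, p was left unadjusted, libraries 68 and 69 were merged and each library was left out. The recovered reads were also tested with edgeR 4.0.16 and, separately, DESeq2 1.42.0. Library 66 as the sole Col-0 CLL library was added after seeing the data. On simulated data of 29276 genes for the genotype comparison under LD, changes were planted only in genes with a mean of at least 50. There, 67 of 100 simulated 3-fold changes and 100 of 100 simulated 8-fold changes were found by limma, with 3 unchanged genes called. Recovery in scarcer genes, several of the 31 among them, was not simulated. The simulated libraries were drawn independently, so neither the likeness of libraries 68 and 69 nor shifts shared by genes were simulated. Tables and figures were made with Python 3.11.15, pandas 2.3.3, numpy 2.4.6, scipy 1.17.1, Biopython 1.88 and matplotlib 3.10.9.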

Additional observations from a re-analysis of the deposited data

Results flagged for a closer look

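The genotype difference of 17 SAUR genes was not the same in the 2 light regimes, by the limma test of the interaction of genotype and light. The interaction, the log2 fold change of *rtnlb16-1* against Col-0 under LD minus that under CLL, was -5.09 for SAUR19, -3.12 for SAUR20, -3.35 for SAUR21, -4.58 for SAUR22, -3.84 for SAUR23 and -3.87 for SAUR24 on chromosome 5. On chromosome 1 it was -3.27 for SAUR62, -3.24 for SAUR63, -3.78 for SAUR64, -2.92 for SAUR65, -4.87 for SAUR68, -3.55 for SAUR66 and -2.87 for SAUR67. On chromosome 3 it was -3.68 for SAUR29, -4.09 for SAUR28, -3.56 for SAUR27 and -3.83 for SAUR26. SAUR68 rests on few reads, and with libraries 68 and 69 merged 4 of the 17 passed, namely SAUR22, SAUR23, SAUR26 and SAUR64.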

How the results depend on the processing

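All members called in a comparison kept their sign in every alternative run. The count of 24 SAUR genes lower in *rtnlb16-1* under LD was 22 to 24 when 1 library was left out. At an unadjusted p under 0.01 and the same fold threshold, 1 gene was higher under LD (SAUR8), 1 was lower under CLL (SAUR9) and 9 instead of 2 were lower under LD than CLL in *rtnlb16-1*. The last count was 4 with the filter on low values, 8 with edgeR, 7 with DESeq2 and 0 to 3 with 1 library left out, and the 1 gene higher there (SAUR6) became 0 to 1. Merging libraries 68 and 69 gave 0 higher and 0 lower in that comparison and 4 instead of 17 in the interaction, which was 4 to 17 with 1 library left out. The count of 20 genes higher under LD in Col-0 was 15 to 22 with 1 library left out. With library 66 as the sole Col-0 CLL library, an alternative chosen after seeing the data that assumes it varies like the other groups, 0 genes passed between light regimes in either genotype and 0 in the interaction, and SAUR8 between LD and CLL in Col-0 turned from -0.79 to 0.18. These fits test fewer samples, and the cause of each loss was not tested further. For 74 single gene values (those called, and the highest and lowest uncalled one in each comparison), 1485 alternative values stayed on their side of the threshold, 184 fell under it, 13 passed it and 1 changed sign. Of all 86 uncalled values (SAUR2 aside), 22 changed sign when 1 library was left out, among them SAUR7 under LD (-0.36 to 0.62), SAUR21 under CLL (-0.27 to 0.05) and SAUR29 under CLL (-0.46 to 0.33). No paired analysis was possible because the labels give no replicate number that is shared between groups. Depth limits SAUR2, SAUR68 and, in *rtnlb16-1* LD, SAUR10, which rest on 3 reads or fewer in a group.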
